A study of Mus musculus with 473 samples.

Results

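The cells described here are 10 single neurons of the mouse midbrain that the authors placed in cluster P7.MB.3, out of 473 cells in the study, 396 cells that passed the authors' quality control and 75 passed midbrain cells of postnatal day 7 (P7). They were set against the 54 cells of clusters P7.MB.1 (39 cells) and P7.MB.4 (15 cells), called reference cells below. The 11 cells of the last P7 midbrain cluster, P7.MB.2, were left out of the comparison. Members were taken by the cluster name in the labels. All of these cells came from Th:EGFP mice, the hemizygous BAC transgenic line Tg(Th-EGFP)DJ76Gsat on an outbred Swiss Webster background, in which regulatory sequences of the tyrosine hydroxylase gene drive a green fluorescent protein. The sort therefore took cells by reporter fluorescence and not by dopamine content, and cells in which the transgene was silent could not enter. Midbrain tissue of 5 pups was pooled before papain dissociation, a density gradient and sorting of living fluorescent cells into single wells, so the clusters share 1 pool of animals and no animal can be told from another. RNA was read with Smart-Seq2, which amplifies full-length polyadenylated RNA of 1 cell. It is given as FPKM, by name fragments per length of transcript and per mapped fragments of the library. How each cell was scaled is not stated.

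Dopaminergic neurons make dopamine from tyrosine in sequential steps catalysed by tyrosine hydroxylase and aromatic amino acid decarboxylase, load it into vesicles and recover it from the synapse with the dopamine transporter. Most midbrain dopaminergic neurons lie in the substantia nigra, whose axons reach the dorsal striatum, or in the ventral tegmental area, which serves the ventral striatum and cortex. A smaller population lies in the periaqueductal grey and dorsal raphe, where part of the cells make vasoactive intestinal peptide (VIP), a secreted neuropeptide that acts on G protein-coupled receptors and raises cyclic AMP in the cells it reaches.

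Upstream sequences are shown for 4 genes on which the results turn, Vip, Crhbp and Prkcd, which were high in the cluster, and Gch1, which was low. Each line gives the 250 bases before the RefSeq transcription start, 5′ to 3′ on the strand of the gene (build GRCm38.p6, the same assembly as mm10), at chr10:5638968-5639217 on the plus strand for Vip and on the minus strand at chr13:95444832-95445081 for Crhbp, chr14:30626209-30626458 for Prkcd and chr14:47189414-47189663 for Gch1. Capitals mark matches, on either strand, to 3 motifs: the palindrome TCCCNNGGGA bound by EBF factors, the half-site TGACG of the cyclic AMP response element, and the TATA box TATAAA. No match overlapped another.
Vip: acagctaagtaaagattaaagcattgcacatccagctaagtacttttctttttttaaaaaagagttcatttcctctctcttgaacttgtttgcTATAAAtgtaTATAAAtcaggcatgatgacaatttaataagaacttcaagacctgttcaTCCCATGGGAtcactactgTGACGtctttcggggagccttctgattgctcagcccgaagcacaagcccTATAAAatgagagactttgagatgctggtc
Crhbp: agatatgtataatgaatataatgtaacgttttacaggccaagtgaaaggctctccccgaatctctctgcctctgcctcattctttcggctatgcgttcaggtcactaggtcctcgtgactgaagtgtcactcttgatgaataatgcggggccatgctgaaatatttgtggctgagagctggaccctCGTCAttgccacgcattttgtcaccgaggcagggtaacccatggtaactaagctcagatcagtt
Prkcd: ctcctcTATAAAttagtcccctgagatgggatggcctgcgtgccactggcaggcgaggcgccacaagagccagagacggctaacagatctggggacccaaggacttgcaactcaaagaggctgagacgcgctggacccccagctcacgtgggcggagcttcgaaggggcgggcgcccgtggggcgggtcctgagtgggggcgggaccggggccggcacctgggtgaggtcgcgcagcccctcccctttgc
Gch1: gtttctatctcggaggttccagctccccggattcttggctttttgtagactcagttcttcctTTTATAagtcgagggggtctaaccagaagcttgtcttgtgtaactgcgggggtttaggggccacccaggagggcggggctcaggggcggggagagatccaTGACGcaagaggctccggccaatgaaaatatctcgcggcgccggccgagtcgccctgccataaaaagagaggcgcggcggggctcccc

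The Vip window held the EBF palindrome as TCCCATGGGA, whose first base lay 98 bases before the start, a TGACG half-site at 79 bases and TATAAA at 157, 147 and 30 bases. The palindrome occurs in 0.779% of the 32851 windows of the same length in the RefSeq table, TGACG in 17.8% and TATAAA in 12.4%. The Crhbp window held 1 half-site, as CGTCA at 64 bases, and the Prkcd window 1 TATAAA, at 244 bases. Gch1 had TGACG at 88 bases and a TATA match on the opposite strand, TTTATA, at 188 bases. These are matches of letters, and binding was not measured. For Prkcd, which has 2 starts in the table, the start nearest to the annotated 5′ end was taken. Of 6 genes looked up, 4 were in the table, and Pnoc and Chrna6 were not.

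On 2 of the 3 P7 library plates the column names disagreed with the labels. The labels give a number of expressed genes for each cell, which was set beside the genes found at 1 FPKM or above in the like-named column. Pearson's r across cells was 0.999 on plate TH02_18.20.16, -0.0338 on plate TH02_16.18.20 and -0.0519 on plate TH02_20.16.18. After the columns of the last 2 plates were exchanged well by well, r was 0.999 on each of them, and they were used in that form. The Vip cluster had 4 cells on plate TH02_18.20.16, 5 on TH02_20.16.18 and 1 on TH02_16.18.20, so 6 of its 10 cells rest on the exchange, and values on the plate that needed none are given beside the main results. The depth of a cell is unknown, since FPKM holds no counts. The labels give a median of 5223.5 genes per cell in P7.MB.3 (range 4755 to 6490.0), 5903 in P7.MB.1 and 7030 in P7.MB.4. Summed FPKM also differed by plate, with medians over reference cells of 544164 on TH02_18.20.16, 262649 on TH02_20.16.18 and 205564 on TH02_16.18.20.

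Since the authors made the clusters from these same values, and since cells of 1 pool are not replicates, no difference was tested and no p-value is given. Differences are log2((mean FPKM + 1)/(mean FPKM + 1)), called at 2-fold or more, and are smaller than the true ratio for genes of low level. SD is the spread over cells. A gene is called found in a cell at FPKM of 1 or more. Intervals of shares are exact 95% intervals by Clopper and Pearson and account for counting error alone. Of 11907 genes whose mean reached 1 FPKM in either group, 1716 (14.4%) were at least 2-fold higher in the Vip cluster and 2118 (17.8%) at least 2-fold lower, with a median log2 difference of 0.016. Leaving out the highest cell of each gene in both groups, which by construction lowers a mean of 10 cells more than a mean of 54, gave 621 higher and 3291 lower. No gene had every P7.MB.3 cell above every reference cell, and 2 genes (0.0168%), Gch1 and Epha5, had every P7.MB.3 cell below every reference cell.

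**Figure D1:**
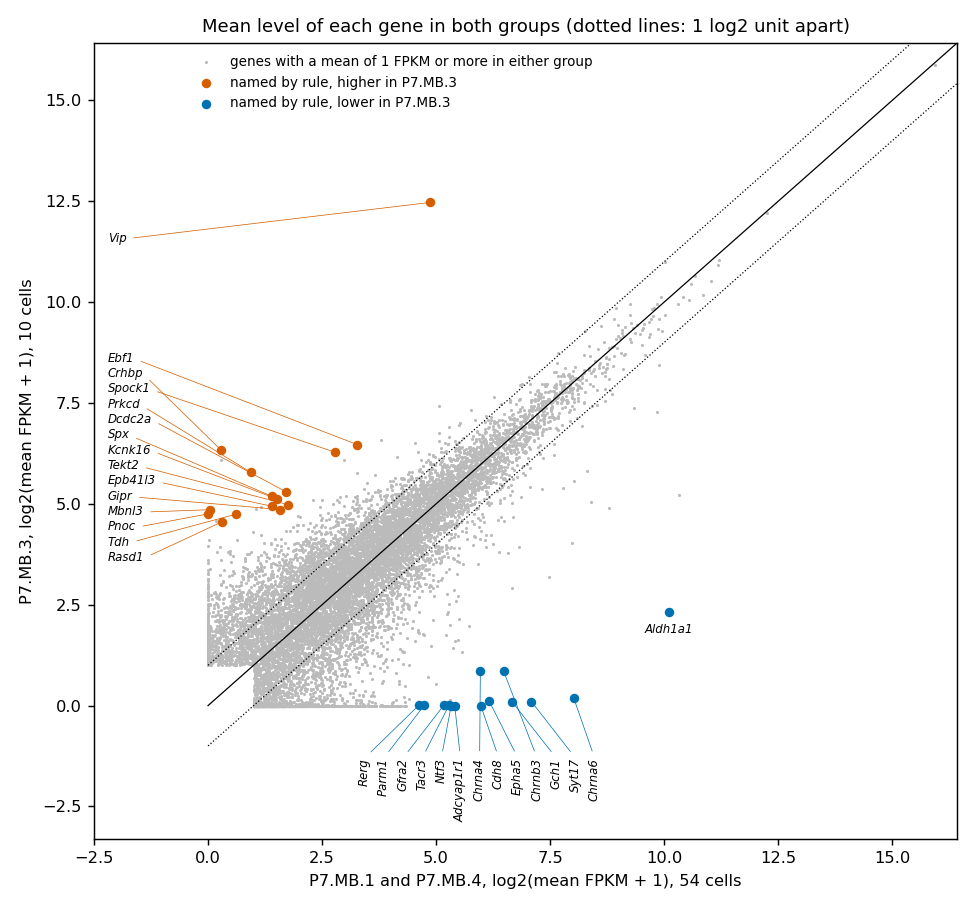
Mean level of each gene with a mean of at least 1 FPKM in either group, as log2(mean FPKM + 1), in the 54 reference cells (x axis) and the 10 P7.MB.3 cells (y axis). Grey points are genes, the solid line marks equal levels, dotted lines mark 1 log2 unit, and coloured points are the 15 highest and 14 of the 15 lowest genes by the naming rule. Vip stands above the diagonal by 7.6 log2 units, and all but Aldh1a1 of the 14 low genes lie below 1 on the y axis.

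The cluster was led by Vip (ENSMUSG00000019772.4, mm10 chromosome 10, 5639218 to 5647617, plus strand). Its lowest, median and highest values over the 10 cells were 17.2, 3526 and 15715 FPKM, against 0, 0 and 703 FPKM in the reference cells. In 9 of the 10 cells Vip lay above the highest reference cell. Mean Vip was 5657 ± 5486 FPKM (SD, 10 cells) against 28.2 ± 120.5 (54 cells), a log2 difference of 7.6, or 194-fold on the scale with 1 FPKM added. It ranked 2 of 28952 features by mean in the Vip cluster and 2107 in the reference cells, and took a median of 1.17% of all FPKM in a P7.MB.3 cell (0.00418 to 2.96%). On plate TH02_18.20.16 alone the log2 difference was 8.57, and on the exchanged plates it was 6.52 (5 cells) and 6.73 (1 cell).

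Vip was not absent from the reference cells, where it was found in 15 of 54 (27.8%, 95% interval 16.5 to 41.6%). However, 3 P7.MB.1 cells with 703, 444 and 347 FPKM held 98.2% of the summed Vip of that group, 1 on each plate. The other 51 reference cells averaged 0.538 FPKM, with a maximum of 3.20. Those 3 cells were listed at 0 for Crhbp, Prkcd and Pnoc. They carried Gch1 at 24.2, 351 and 115 FPKM, above its level in any P7.MB.3 cell. Without them, an alternative added after the values had been seen, the log2 difference of Vip was 11.84. Across the other P7 clusters the median of Vip was below 1 FPKM, and single cells reached 812 FPKM in P7.FB.2 (forebrain) and 676 FPKM in P7.OB.1 (olfactory bulb).

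Crhbp encodes a secreted protein that binds corticotropin-releasing factor and keeps it from its receptors. Its lowest, median and highest values were 0, 74.4 and 202 FPKM in the Vip cluster, and it was found in 7 of 10 cells (70.0%, 95% interval 34.8 to 93.3%) against 1 of 54 (1.85%, 0.0469 to 9.89%). All 7 cells lay above the highest reference value of 10.7 FPKM. The means were 79.1 ± 72 and 0.224 ± 1.46 FPKM, a log2 difference of 6.03. Prkcd, a kinase of the protein kinase C family that is activated by diacylglycerol without calcium, had values of 0, 11.2 and 176 FPKM in the Vip cluster. It was found in 6 of 10 cells (60%, 26.2 to 87.8%) against 4 of 54, with means of 53.8 ± 67.7 and 0.922 ± 3.87 FPKM and a log2 difference of 4.83. Prkcd values of the groups overlapped up to 24.5 FPKM, and 4 P7.MB.3 cells lay above that. On plate TH02_18.20.16 alone the log2 differences were 6.57 for Crhbp and 5.28 for Prkcd.

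Pnoc, the precursor of the opioid-like peptide nociceptin, was found in 6 of 10 cells of the Vip cluster, with a median of 8.13 and a maximum of 94.6 FPKM. It was listed at 0 in all 54 reference cells, so no fold is given. The nociceptin receptor gene Oprl1 was found in 7 of 10 cells and 51 of 54 reference cells, at mean levels of 46.6 and 44.1 FPKM. Pnoc and Crhbp also occurred in other P7 clusters: Pnoc was found in 24 of 55 P7.FB.2 cells and 9 of 20 P7.OB.1 cells, and Crhbp in 12 of 55 P7.FB.2 cells and 3 of 11 P7.MB.2 cells. Prkcd was found in at most 13.3% of the cells of any other P7 cluster, that of P7.MB.4.

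**Figure D2:**
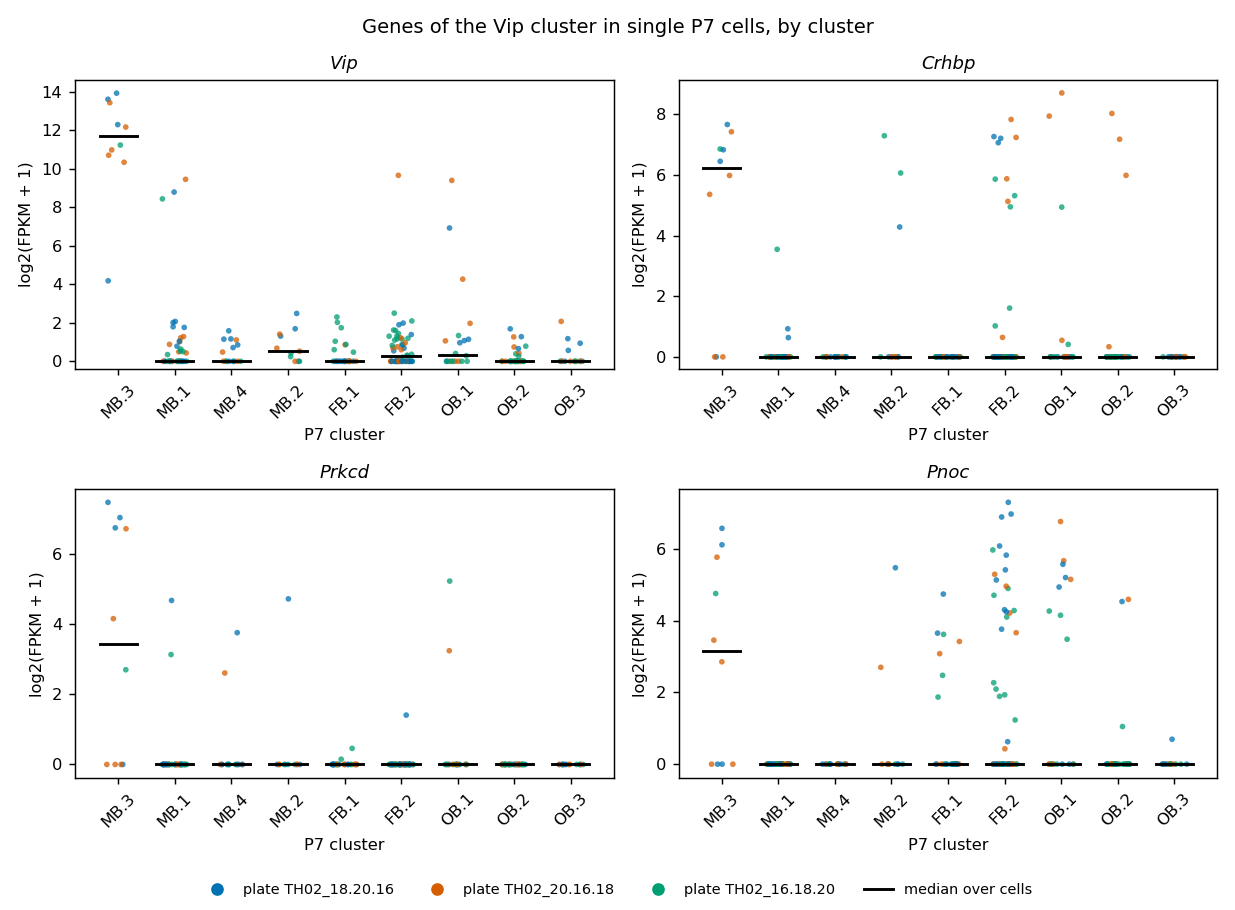
Vip, Crhbp, Prkcd and Pnoc in every passed P7 cell, as log2(FPKM + 1), by the authors' clusters of midbrain (MB), forebrain (FB) and olfactory bulb (OB). Points are cells coloured by library plate, and bars are medians over cells. Vip is at 1301 FPKM or more in 9 of 10 MB.3 cells and at 812 FPKM or less in every cell of the other clusters, whereas Pnoc and Crhbp are also found in parts of FB.2 and OB.1.

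The 4 genes did not mark every cell together. Of the 10 cells, 3 had all of Vip, Crhbp, Prkcd and Pnoc, 7 had at least 3, 9 had at least 2 and each had at least 1. Among reference cells 35 of 54 had none, 18 had 1, 1 had 2 and none had 3. The cell with the most Vip, at 15715 FPKM, had Crhbp at 113, Prkcd at 129.9 and Pnoc at 94.6 FPKM. The cell with the second least Vip, at 1301 FPKM, was listed at 0 for the other 3. Even so its Gch1 was 0.335 FPKM, below every reference cell.

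The cell with the least Vip (17.2 FPKM, plate TH02_18.20.16) differed from the rest in other genes too. It had Crhbp at 86.5 and Pnoc at 68.5 FPKM, but also the highest Cck (2559 FPKM) and the lowest Slc6a3 (8.82 FPKM) of the 10. Its Gch1 was 0.350 FPKM. Its label places it in P7.MB.3, and it was kept. Without it, an alternative added after the values had been seen, the log2 difference of Vip was 7.75.

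Of 6 genes listed as markers of periaqueductal and dorsal raphe dopaminergic neurons, 5 reached the minimum mean. Of these, 4 were at least 2-fold higher (14.4% over all genes tested), Vip, Crhbp, Prkcd and Pnoc. The median log2 difference of the 6 was 4.79, against 0.016 over all genes tested. This list was drawn with results of these data known, and its first 3 members mark the cluster, so the count describes the cluster and does not support its name. Npw, the precursor of neuropeptide W, was found in 1 of 10 cells and 7 of 54 reference cells. Fbn2, which encodes fibrillin 2, was listed at 0 in the Vip cluster. The tissue was taken as midbrain, and where in it a cell lay was not recorded.

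Among receptors and ligands related to these peptides, the gene of the PACAP receptor PAC1, Adcyap1r1, stood out. PAC1 binds PACAP with high affinity and VIP weakly. Adcyap1r1 was listed at 0 in all 10 cells of the Vip cluster, while it was found in 51 of 54 reference cells with a lowest, median and highest value of 0, 34.4 and 128 FPKM. A count of 0 of 10 allows a share of up to 30.8% at the upper 95% bound. In each of the other 8 P7 clusters Adcyap1r1 was found in 75.0 to 100.0% of cells. The VIP receptor genes Vipr1 and Vipr2 were listed at 0 in both groups. The PACAP precursor gene Adcyap1 was found in 1 of 10 cells, at 223 FPKM, and 25 of 54 reference cells. Of the 7 genes of the corticotropin-releasing factor system, Crhr1 (18 of 54 reference cells, mean 5.69 FPKM) and Crh (5 of 54 reference cells) were listed at 0 in the Vip cluster, beside the high Crhbp.

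The dopamine pathway was present but uneven. Th, the enzyme of the first and rate-limiting step, had a lowest, median and highest value of 506, 1009 and 3006 FPKM in the Vip cluster and 564, 1406 and 5350 FPKM in the reference cells. The ranges overlapped almost wholly, with 9 of 10 cells below the reference median and means of 1147 ± 714 and 1844 ± 1126 FPKM (log2 difference -0.68). The reporter transcript eGFP was near equal at 479 ± 297 and 473 ± 392 FPKM. Ddc, the decarboxylase of the second step, was found in 10 of 10 and 54 of 54 cells at means of 171 ± 153 and 342 ± 346 FPKM. Its log2 difference of -0.99 was -1.78 on plate TH02_18.20.16 alone and 0.02 on the exchanged plates, so no difference is read for it.

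Gch1 encodes GTP cyclohydrolase, the first enzyme in the synthesis of tetrahydrobiopterin, the cofactor that tyrosine hydroxylase needs (ENSMUSG00000037580.9, mm10 chromosome 14, 47153895 to 47189413, minus strand). It was found in 0 of 10 cells of the Vip cluster, where its highest value was 0.350 FPKM, and in 54 of 54 reference cells, where its lowest, median and highest values were 9.80, 61.4 and 579.8 FPKM. The groups did not overlap. The means were 0.0685 ± 0.144 and 100.3 ± 115 FPKM, and the log2 difference was -6.57, at -7.21 on plate TH02_18.20.16, -6.15 on TH02_20.16.18 and -5.47 on TH02_16.18.20. Gch1 was as low in P7.MB.2 (0 of 11 cells found, highest value 0.396 FPKM) and was found in 5.00 to 46.7% of cells in the forebrain and olfactory bulb clusters. The later enzymes of cofactor synthesis, Pts and Spr, and Qdpr, which recycles the cofactor, were within 2-fold, with log2 differences of -0.38, 0.24 and -0.34.

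Storage and reuptake genes were found in every cell at lower levels. Slc18a2, the vesicular monoamine transporter, had values of 4.43, 29.2 and 65.4 FPKM in the Vip cluster against 11.2, 262 and 1089 FPKM. Its means were 32.1 ± 22.0 and 336 ± 239.5 FPKM, a log2 difference of -3.35, and all 10 cells lay below the reference median. Slc6a3, the dopamine transporter, had values of 8.82, 123 and 389.6 FPKM against 24.6, 505 and 5193 FPKM, with a log2 difference of -2.58. For Slc6a3 the choice of reference mattered: the difference was -1.63 against P7.MB.1, whose mean was 474 FPKM, and -3.76 against P7.MB.4, whose mean was 2078 FPKM. On plate TH02_18.20.16 alone it was -2.68 for Slc6a3 and -3.74 for Slc18a2. The autoreceptor gene Drd2 was found in 9 of 10 and 51 of 54 cells, at -0.54. Of the enzymes of dopamine breakdown, Maoa was at -1.38 and Maob at -1.17, though Maob was at 0.36 against P7.MB.4 alone. In all, of 12 genes of the pathway 6 were at least 2-fold lower (17.8% over all genes tested) and none at least 2-fold higher (14.4%). The median was -1.08. That median was -1.96 on plate TH02_18.20.16 alone and -0.38 on the exchanged plates.

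**Figure D3:**
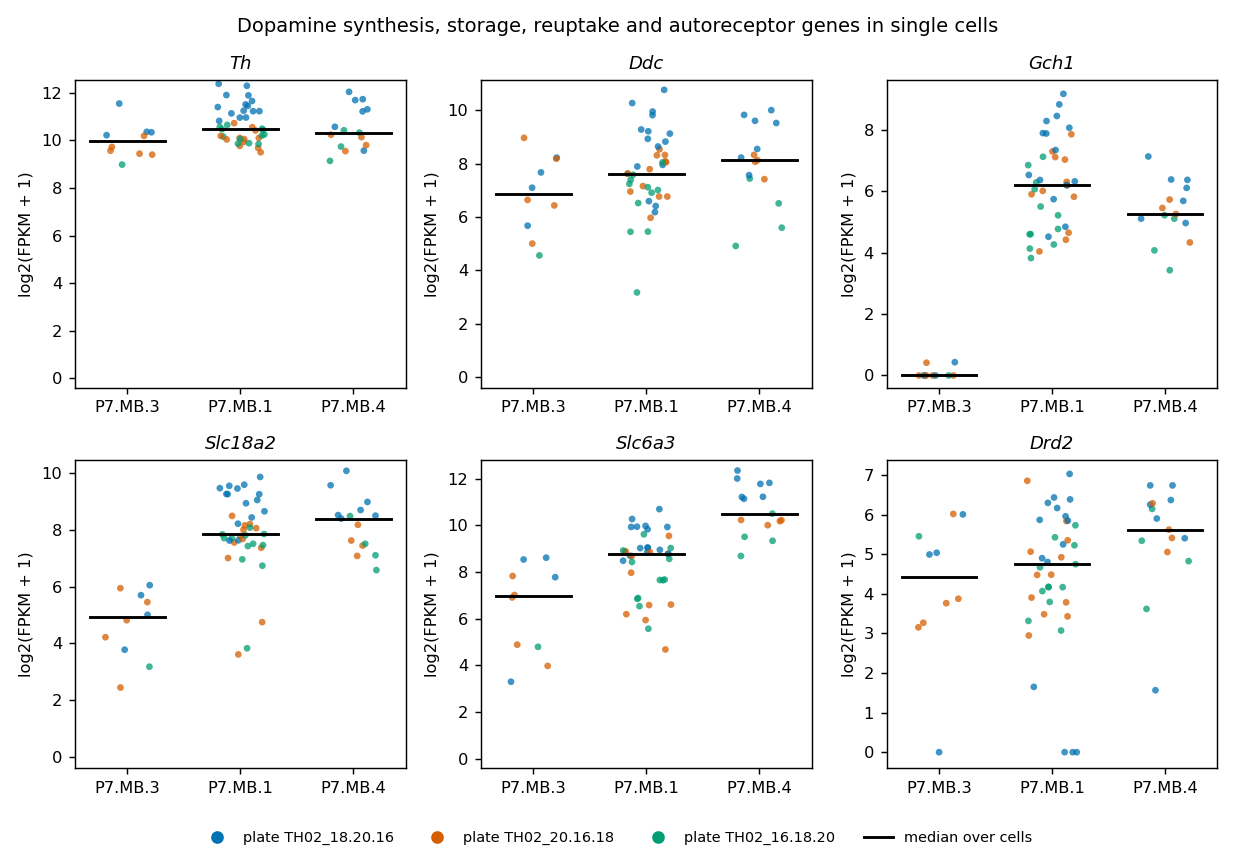
Th, Ddc, Gch1, Slc18a2, Slc6a3 and Drd2 in single cells of P7.MB.3, P7.MB.1 and P7.MB.4, as log2(FPKM + 1). Points are cells coloured by plate, and bars are medians over cells. Gch1 is below 1 FPKM in all 10 P7.MB.3 cells and at 9.80 FPKM or more in the 54 reference cells, whereas the Th ranges overlap.

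Of 15 transcription factors of the midbrain dopaminergic lineage, 14 reached the minimum, 3 were at least 2-fold higher and 3 lower, shares no smaller than the 14.4% and 17.8% over all genes tested. The median log2 difference of the 15 was 0.23, at -0.16 on plate TH02_18.20.16 alone and 0.76 on the exchanged plates. En1, a homeobox gene of midbrain patterning and dopaminergic survival, was found in 10 of 10 and 54 of 54 cells at means of 25.3 and 18.6 FPKM. Foxa1 (12.8 and 13.1 FPKM), Pitx3 (34.1 and 28.2 FPKM) and Lmx1a (12.1 and 10.2 FPKM) were within 2-fold. Foxa2, a forkhead factor of the floor plate lineage, was higher, at 27.2 ± 33.1 against 8.80 ± 16.4 FPKM (log2 difference 1.53), as was Bnc2, at 31.7 against 14.5 FPKM (1.08, and 0.21 against P7.MB.4 alone).

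Ebf1, a helix-loop-helix factor of neuronal differentiation, was the transcription factor of this list with the largest difference. Its values were 0.656, 52.8 and 267 FPKM in the Vip cluster, where it was found in 9 of 10 cells (90%, 95% interval 55.5 to 99.7%), and 0, 0 and 74.5 FPKM in the reference cells, where it was found in 20 of 54. The means were 87.4 ± 96.2 and 8.66 ± 17.2 FPKM, a log2 difference of 3.19, and 5 of 10 cells lay above the highest reference cell. Against P7.MB.4 alone, where 10 of 15 cells had Ebf1, it was 2.56. In the clusters of forebrain and olfactory bulb Ebf1 was found in at most 10.0% of cells. Nr4a2, which maintains dopaminergic identity, was lower at 28.7 ± 31.2 against 59.8 ± 48.2 FPKM (-1.03). Sox6, a nigral factor, was found in 1 of 10 cells and 17 of 54. Otx2, a tegmental factor, was listed at 0 in the Vip cluster and found in 22 of 54 reference cells, 21 of them in P7.MB.1.

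The genes that tell substantia nigra from ventral tegmental neurons were mostly low. Of 14 genes associated with the substantia nigra, 13 reached the minimum. Of these, 9 were at least 2-fold lower (17.8% over all genes tested) and 2 higher (14.4%), Atp2a3 and Kcns3. The median of the 14 was -2.4. Aldh1a1, which oxidises retinaldehyde and dopamine aldehydes, had values of 0, 0.353 and 35.8 FPKM in the Vip cluster, where 1 cell held 90.5% of the sum, against 0, 125 and 7192 FPKM. Its log2 difference was -7.79, at -6.44 against P7.MB.1 and -9.16 against P7.MB.4. Serpine2, a protease inhibitor, was at 8.05 against 176 FPKM (-4.29), and Aldh1a7, Igf1 and Anxa1 were listed at 0 in the Vip cluster and found in 27, 23 and 11 of the 54 reference cells.

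Of 12 genes associated with the ventral tegmental area, 11 reached the minimum. Of these, 7 were at least 2-fold lower (17.8% over all genes tested) and 1 higher (14.4%), with a median over the 12 of -1.46. The higher one was Calb1, the calcium buffer calbindin, found in 10 of 10 cells at 199 ± 194 FPKM against 76.1 ± 65.3 FPKM (1.38, and 2.42 against P7.MB.4). Cck, the precursor of cholecystokinin, was found in 8 of 10 cells at a mean of 412 ± 784 FPKM, of which 62.2% came from the cell with the least Vip. The Cck means were 761 FPKM in P7.MB.1 and 28.7 FPKM in P7.MB.4. Neurod6 (-5.15), Grp (-2.88) and Tacr3 (-5.27), the receptor of neurokinin B, were lower. Slc17a6, the vesicular glutamate transporter VGLUT2, was found in 2 of 10 cells and 38 of 54, and 35 of these 38 were P7.MB.1 cells.

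By the naming rule the 15 highest genes were Vip, Crhbp, Prkcd, Mbnl3, Pnoc, Rasd1, Tdh, Spx, Kcnk16, Dcdc2a, Epb41l3, Spock1, Gipr, Tekt2 and Ebf1. They came from 241 genes (2.02%) that met all its conditions in that direction. Spock1, a secreted proteoglycan of the matrix, was the broadest after Vip, found in 10 of 10 cells against 12 of 54. Its values were 2.83, 93.3 and 164 FPKM against 0, 0 and 162 FPKM, with a log2 difference of 3.48. Spock1 was not particular to the Vip cluster, where its mean was 76.3 FPKM. It was found in 10 of 11 P7.MB.2 cells (mean 63.1 FPKM) and 45 of 55 P7.FB.2 cells (mean 65.8 FPKM). Epb41l3 was likewise found in every P7.MB.2 cell, and Mbnl3 in most P7.FB.1 cells. The peptide gene Spx, the precursor of spexin, was found in 6 of 10 cells at 35.3 ± 60.1 FPKM against 1.65 ± 5.74 FPKM (3.78). Gipr, the receptor of the gut peptide GIP, was found in 8 of 10 cells and 9 of 54, at 28 ± 25.8 against 1.99 ± 5.56 FPKM (3.28). Kcnk16, a background potassium channel, was at 33.6 against 1.87 FPKM (3.59), and Rasd1, a small G protein induced by dexamethasone, was found in 7 of 10 cells against 3 of 54 (4.25). A single cell held 80.4% of summed Tdh and 68.7% of Mbnl3 in the Vip cluster, so the means of these genes rest largely on it.

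Among the 15 lowest were Chrna6, Aldh1a1, Syt17, Gch1, Epha5, Cdh8, Chrnb3, Adcyap1r1, Ntf3, Tacr3, Gfra2, Chrna4, Parm1 and Rerg, from 237 genes (1.99%) that met the conditions. Of these, Cdh8, Adcyap1r1 and Ntf3 were listed at 0 in every cell of the Vip cluster. Cdh8, a cadherin, was found in 39 of 54 reference cells at a mean of 62 FPKM. Ntf3, the precursor of neurotrophin 3, was found in 35 of 54 at 39.2 FPKM. Epha5, a receptor of ephrins in axon guidance, had a highest value of 0.442 FPKM in the Vip cluster and a lowest value of 2.11 FPKM in the reference cells, whose median was 63.2 FPKM (log2 difference -6.04). Syt17, a synaptotagmin relative, had a highest value of 0.511 FPKM, while it was found in 51 of 54 reference cells at a median of 99.4 FPKM (-6.99).

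**Figure D4:**
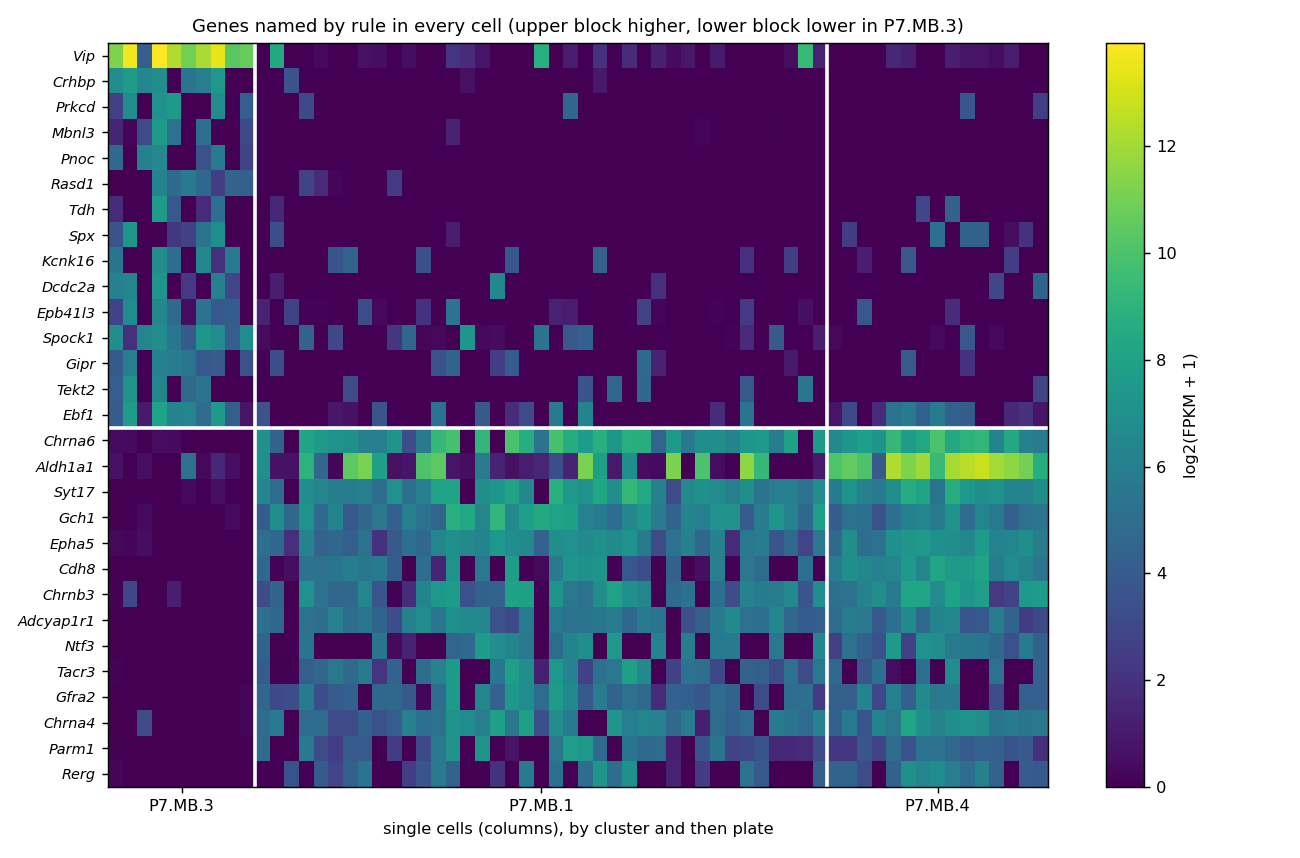
The 15 highest and 14 of the 15 lowest genes named by rule (rows of the image) in each of the 10 P7.MB.3, 39 P7.MB.1 and 15 P7.MB.4 cells, coloured by log2(FPKM + 1). The upper block holds the 15 genes higher and the lower block the 14 genes lower in P7.MB.3. The higher genes other than Vip and Spock1 are missing from at least 1 P7.MB.3 cell each, whereas most of the lower genes are near 0 across the 10 cells.

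Nicotinic acetylcholine receptor subunits differed by gene. Chrna6, the α6 subunit typical of dopaminergic neurons, had a highest value of 0.398 FPKM in the Vip cluster and values of 0, 164 and 999 FPKM in the reference cells. It was found in 0 of 10 cells (up to 30.8%) and in 50 of 54 (92.6%, 82.1 to 97.9%), with a log2 difference of -7.84. Its partners Chrnb3 (0.808 ± 2.13 against 88.1 ± 89.7 FPKM, -5.62) and Chrna4 (0.812 ± 2.53 against 61.6 ± 62.4 FPKM, -5.11) were low with it. The common β2 subunit gene Chrnb2 was not: it was found in 10 of 10 and 54 of 54 cells at 44.4 ± 31.7 and 40.8 ± 30 FPKM (0.12). Chrna3 (-0.78) and Chrna7 (0.41) were within 2-fold. Of the 8 subunits listed, 7 reached the minimum. Of these, 4 were at least 2-fold lower (17.8% over all genes tested) and none was higher (14.4%). Chrna5, listed at 0 against 8 of 54 reference cells, was among the 4. The median of the 8 was -1.04, at -0.54 against P7.MB.1 alone and -0.49 on the exchanged plates.

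Many other receptors for transmitters were lower. Of 35 G protein-coupled receptor genes listed, 24 reached the minimum. Of these, 14 were at least 2-fold lower (17.8% over all genes tested) and 2 higher (14.4%), with a median over the 35 of -0.66. The κ-opioid receptor gene Oprk1 was found in 1 of 10 cells and 47 of 54 (2.07 ± 6.17 against 43.6 ± 45.8 FPKM, -3.86). Adra1b, an adrenergic receptor, was at 2.54 against 23.3 FPKM (-2.78), Ntsr1, the high-affinity neurotensin receptor, at 9.32 against 26.8 FPKM (-1.43), and Chrm5, a muscarinic receptor, was listed at 0 against 32 of 54 reference cells. Sstr1, a somatostatin receptor, went the other way and was found in 8 of 10 cells against 21 of 54 (23.4 ± 23.1 against 5.03 ± 8.81 FPKM, 2.02).

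Of the 14 listed genes of Mendelian Parkinson disease, 13 reached the minimum. Of these, 10 were within 2-fold and none was at least 2-fold higher (14.4% over all genes tested). Park7 (139.7 and 148 FPKM), Uchl1 (598 and 654 FPKM), Pink1 (43.5 and 39.9 FPKM) and Vps35 (72.8 and 54.1 FPKM) were among the 10.

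**Figure D5:**
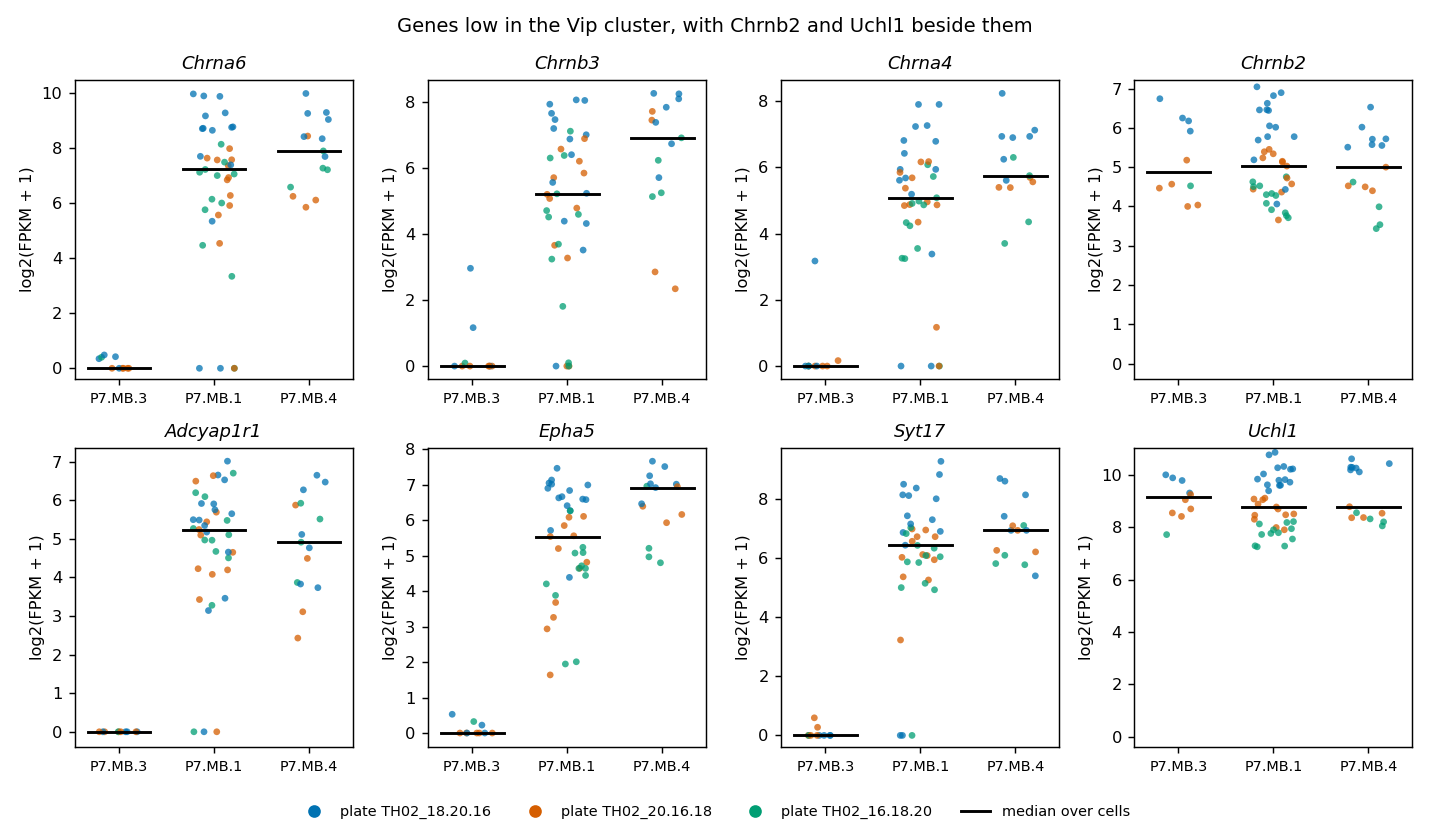
Chrna6, Chrnb3, Chrna4, Chrnb2, Adcyap1r1, Epha5, Syt17 and Uchl1 in single cells of P7.MB.3, P7.MB.1 and P7.MB.4, as log2(FPKM + 1). Points are cells coloured by plate, and bars are medians over cells. The first 3 subunits, Adcyap1r1, Epha5 and Syt17 are below 10 FPKM in all 10 P7.MB.3 cells, whereas Chrnb2 and Uchl1 lie in the range of the reference cells.

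Of 19 genes of synaptic vesicle release, none was at least 2-fold higher (14.4% over all genes tested). A further 3 were lower, a share near the 17.8% over all genes tested. The median log2 difference of the 19 was -0.61 against 0.016 over all genes. Snap25 (343 ± 154 and 380.1 ± 240.1 FPKM), Syp (241 and 280.1 FPKM) and Rab3a (274 and 277 FPKM) were near equal. The 3 lower genes were Cplx1, a complexin that clamps the fusion machinery (1.71 against 40.6 FPKM, -3.94), Sv2c, a vesicle glycoprotein (medians of 13.7 and 49.4 FPKM, -1.96) and Vamp1 (-1.13). Of 15 genes that process peptides or build dense-core vesicles, 13 were within 2-fold and 2 at least 2-fold lower (17.8% over all genes tested). Among the 13 were the convertase gene Pcsk2 (-0.41) and the carboxypeptidase gene Cpe (0.02). Scg2, the granin secretogranin II, was lower at 164 against 649 FPKM (-1.97), as was Cadps2 (-1.51), while Scg5, the chaperone of Pcsk2, was within 2-fold at 675 against 388 FPKM (0.80).

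Neuropeptide precursors differed in both directions. Of 30 listed, 17 reached the minimum and 6 were listed at 0 in both groups. Of the 17, 5 were at least 2-fold higher (Vip, Pnoc, Tac1, Cartpt and Trh) and 7 lower, beside 14.4% and 17.8% over all genes tested. Tac1 came from 1 cell, at 142 FPKM, and Cartpt and Trh from 2 and 3 of 10 cells. Penk, the enkephalin precursor, was found in 3 of 10 cells and 34 of 54 (17.7 against 72.4 FPKM, -1.97).

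Within the protein kinase C family the high Prkcd stood beside lower relatives. Of 9 genes 7 reached the minimum, and 4 of these were at least 2-fold lower (17.8% over all genes tested). Prkca (-2.09), Prkci (-1.99) and Prkcz (-1.27) were among the 4, and Prkcb (-0.30) and Prkce (-0.03) were within 2-fold. Of 13 genes of trophic signalling 8 reached the minimum. Of these, 1 was at least 2-fold higher and 4 lower, beside 14.4% and 17.8% over all genes tested. Ret, the receptor tyrosine kinase of the GDNF family, was near equal at 56.1 ± 33.6 and 73.6 ± 50.4 FPKM (-0.38). Its co-receptor gene Gfra2 was found in 0 of 10 cells and 46 of 54 (-5.15). Gfra1 was found in 10 of 10 cells and 40 of 54 but at a lower mean (-1.16), which was lower than in P7.MB.1 (-1.58) and higher than in P7.MB.4 (1.88). Ntrk3, the receptor of neurotrophin 3, was higher at 26.9 ± 44.6 against 9.91 ± 17.5 FPKM (1.35), with 55.4% of its sum in 1 cell.

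Of 38 axon guidance genes, 32 reached the minimum. Of these, 4 were at least 2-fold higher (14.4% over all genes tested) and 9 lower (17.8%), with a median over the 38 of -0.08. The secreted guidance cues Ntn1 (netrin 1, 1 of 10 cells against 52 of 54, -4.11) and Slit2 (-2.78) and the receptor genes Epha5, Epha7 (-2.96), Nrp2 (-3.06) and Robo2 (-1.74) were among the lower ones. Unc5b, a netrin receptor of repulsion, was higher and found in 8 of 10 cells against 6 of 54 (6.05 ± 4.52 against 0.661 ± 2.20 FPKM, 2.09), as was Efna5, an ephrin that binds Epha5 among other receptors, found in 9 of 10 cells (14.6 ± 9.68 against 5.16 ± 9.11 FPKM, 1.34). Of 26 genes of pacemaking and excitability, 21 reached the minimum. Of these, 1 was higher (14.4% over all genes tested), Kcnip3 (53.5 ± 58.2 against 8.60 ± 18.1 FPKM, 2.5), and 6 were lower (17.8%). Among the 6 were Kcnj6 (-2.44), the GIRK2 channel of nigral neurons, and Kcnn3 (-1.95), a small-conductance calcium-activated channel. Of 12 calcium-binding proteins 11 reached the minimum. Calb1 was higher and 4 were lower, beside 14.4% and 17.8% over all genes tested. Of the 4 Vsnl1 differed most (6.52 against 101 FPKM, -3.76).

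Markers of other cells that the sort could hold were summed per cell. In the Vip cluster the summed levels of the 5 serotonergic, 5 noradrenergic and 3 cholinergic markers were 0 in every cell, with Tph2, Slc6a4, Fev, Dbh and Chat listed at 0. In the reference cells these sums reached 43.6, 0 and 10.8 FPKM. Of the 5 GABAergic markers, Slc32a1 was listed at 0, Gad1 and Gad2 stayed below 0.2 FPKM, and the summed level ran from 0 to 155 FPKM, against 7.36 to 294 FPKM in the reference cells. Sums of the glial and vascular lists ran from 0 to 15.3 FPKM for 7 astrocyte, 0 to 73.4 for 9 oligodendrocyte, 0 to 8.21 for 7 microglial and 0 to 15.9 for 7 endothelial and pericyte genes, against reference maxima of 212, 142, 4.64 and 171 FPKM. Oligodendrocyte-defining Olig2, Sox10 and Mog were listed at 0 in the Vip cluster. The 5 ependymal genes reached 102 FPKM against 58.3 FPKM, from Dynlrb2 in 2 of 10 cells, while the ependyma-defining Foxj1 stayed below 1 FPKM in the Vip cluster. The 15 transcription factors of other midbrain neurons reached 59.6 FPKM against 60.9 FPKM, and that level came from Lhx9 in 1 cell. The part of other cell types in the differences was not tested.

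Early response genes, which dissociation and activity induce, were higher in part of the Vip cluster. Of 12 listed, 10 reached the minimum. Of these, 4 were at least 2-fold higher (Fos, Fosb, Arc and Dusp1) and 1 lower (Nr4a1), beside 14.4% and 17.8% over all genes tested. Fos had values of 0, 35.9 and 176 FPKM and was found in 8 of 10 cells, against 0, 0.832 and 114 FPKM and 26 of 54. The summed level of the list had a median of 138 FPKM against 29.8 FPKM. Whether handling of the cells had a part in any of the differences above was not tested. Of 11 markers of immature neurons, 10 reached the minimum, 9 were within 2-fold and 1 was higher (14.4% over all genes tested). The higher one was Cd24a, a surface glycoprotein of young neurons, found in 10 of 10 cells against 22 of 54 (70.0 and 16.7 FPKM, 2.01). All 6 ubiquitous genes were within 2-fold, with a median of -0.02.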

How the data were processed

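Single cells of P7 midbrain were compared by the cluster that the labels give. The deposited values are FPKM, made by the authors with the tools HISAT2 and Cuffnorm on mm10, per the submitters' processing notes; versions are not given in the sources used here, and how each cell was scaled is not stated. Of 28952 features, 28636 took a symbol from GENCODE M21 (GRCm38, the assembly of mm10), and 14 share one. Columns of 2 P7 plates were exchanged well by well, checked with the gene numbers in the labels. No 2 of the 285 P7 cells were identical, and no doublet caller was run, since wells were filled by sorting. Depth is unknown, so no floor can be given beyond shares of cells.

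Means, SDs, shares and log2((mean + 1)/(mean + 1)) were computed with Python 3.11.15, pandas 2.3.3, numpy 2.4.6 and scipy 1.17.1, for genes with a mean of at least 1 FPKM in either group, and tested on simulated data. No difference between groups was tested, because the cells come from 1 pool. Genes named by rule were the 15 highest and 15 lowest with a symbol, a mean of 20 FPKM or above and presence in 50% or more of the cells where they were higher, and 1 direction on the 2 plates with 4 or more P7.MB.3 cells, against P7.MB.1 and P7.MB.4 alone and in mean log2(FPKM + 1). Members of 32 gene lists were named by list. Medians of lists take a gene listed at 0 in a group with 1 FPKM added. The cells and the lists were chosen with earlier results of these data known. Coordinates come from GENCODE M21 and upstream sequences from RefSeq (GRCm38.p6). Some genes are not reported here.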

Additional observations from a re-analysis of the deposited data

Results flagged for a closer look

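For each of 32 genes the 10 P7.MB.3 cells were searched for 1 cell far from the others on the log2(FPKM + 1) scale, by the gap to the nearest other cell over the range of the group (Dixon's 95% critical value). In normally distributed values chance marks about 1 in 20, a rate that does not hold for genes listed at 0 in most cells, such as Chrna4 and Chrnb3. In all, 4 of 32 genes were marked. Vip had 1 low cell, at 17.2 FPKM, the next lowest being 1301 FPKM (gap over range 0.631). Aldh1a1 had 1 high cell at 35.8 FPKM, the next at 1.96 FPKM (0.699), Chrnb3 1 at 6.78 FPKM, the next at 1.24 FPKM (0.607), and Chrna4 1 at 8 FPKM, the next at 0.121 FPKM (0.948).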

How the results depend on the processing

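Among the 34 genes followed singly, none that was called changed direction under the 15 alternatives, of which 2 (without the cell with the least Vip, and without the 3 reference cells with Vip over 100 FPKM) were added after the data were seen. Their values moved beyond the spread over plates for 24 with a pseudocount of 10 and 18 with a pseudocount of 0.1. They did so for 19 in differences of mean log2 values, 10 against P7.MB.4 alone and 16 with columns as named. With columns as named Gch1 was at -2.81 against -6.57. Against 1716 higher and 2118 lower, a pseudocount of 10 gave 176 and 233, a mean of at least 10 FPKM 669 and 575, differences of mean log2 values 752 and 1352, and leaving out the highest cell of each gene 621 and 3291, and plate TH02_18.20.16 alone gave 4398 lower. The median of the periaqueductal and dorsal raphe list (4.79) was 2.67 with columns as named, 6.68 and 2.20 with pseudocounts of 0.1 and 10, and 3.09 in mean log2 values. That of the dopamine pathway (-1.08) was -1.96 on plate TH02_18.20.16 alone and -0.38 on the exchanged plates. That of the substantia nigra list (-2.4) was -4.77 and -0.69 with these pseudocounts, -0.91 in mean log2 values, -1.57 against P7.MB.1 and -3.61 against P7.MB.4. That of the ventral tegmental list (-1.46) was -0.69 with columns as named, -2.61 without the highest cells and -0.45 against P7.MB.4. The nicotinic median (-1.04) was -1.76 on plate TH02_18.20.16 alone, -0.49 on the exchanged plates, -3.47 and -0.33 with these pseudocounts, -0.54 against P7.MB.1 and -1.95 against P7.MB.4. Counted at any value above 0, Chrna6 was found in 40.0% of P7.MB.3 cells instead of 0. Apart from what the settings fix by construction, the causes of these shifts were not tested. No paired analysis was possible because the cells carry no replicate number that links the clusters; differences within each plate are given in the report instead. With 10 cells of 1 pool and no depth, a gene found in 0 of 10 may occur in up to 30.8% of such cells, and differences between animals cannot be told apart from those between clusters.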

Other observations

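Genes found in at least 90% of reference cells and in none of the 10 P7.MB.3 cells were looked up after the values had been seen. There were 5: Epha5 and Gch1 (54 of 54 reference cells each), Adcyap1r1 and Syt17 (51 of 54 each) and Chrna6 (50 of 54).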
